A study of Mus musculus with 6 samples.

Results

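The EGF receptor family was followed through 10 genes, which were 7 ligands (Areg, Ereg, Hbegf, Tgfa, Btc, Epgn and Nrg1) and 3 receptors (Egfr, Erbb2 and Erbb3). The genes were chosen by name, through the RefSeq accession of each probe, and not by a threshold on their values. Earlier results of these data were known when they were chosen. All 10 were on the array, with 21 of its 41174 probes, and all 10 were among the 12824 genes bright enough to be tested. Epidermis was taken at postnatal day 0 from 3 wild-type (WT) mice and 3 AhRCA mice of mixed strain, with 1 mouse per Agilent 1-colour array. AhRCA mice express a constitutively active aryl hydrocarbon receptor (AhR), a ligand-activated transcription factor that senses dioxins and other pollutants. The keratin 14 promoter drives it, so that the transgene is made in basal keratinocytes, including those of the hair follicle, and not in every cell of the tissue. Each sampling took 1 AhRCA mouse and 1 WT littermate. Samples with the same replicate number were taken as littermates and are called a pair. The labels name no treatment.

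EGF family ligands are made as membrane-bound precursors that metalloproteinases cut free. Most of them bind Egfr, while Nrg1 binds Erbb3. The bound receptors pair with each other and with Erbb2, which has no soluble ligand of its own. A further receptor of the family, Erbb4, was on the array but too dim to be tested. In skin the family is known for driving the growth of basal keratinocytes, wound closure and the form of the hair coat. Areg and Ereg are known as genes that respond to AhR in other settings.

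Of the 10 genes, 0 rose and 0 fell in AhRCA epidermis (limma, Benjamini-Hochberg adjusted p under 0.05), and 0 had an unadjusted p under 0.05. Over all genes tested, 2.18% passed the adjusted threshold (0.53% higher and 1.65% lower in AhRCA) and 12.2% had an unadjusted p under 0.05. The log2 fold changes of the family ran from -0.08 for Tgfa to 0.37 for Epgn, with a median of 0.17 beside 0.00 over all genes tested. Of the 10, 8 were positive, as were 50.4% of all genes. Under median scaling 9 were positive, beside 58.5% of all genes, and within slide 1 it was 6, beside 54.6%. The groups of all 10 genes overlapped, whereas 16.4% of all genes had groups that did not (7.52% with AhRCA higher and 8.84% with AhRCA lower). In the same fit 5 of 5 AhR target genes (Cyp1a1, Cyp1b1, Ahrr, Tiparp and Nqo1) rose, with log2 fold changes from 1.45 to 7.07. In whole tissue, fewer cells of a type and less RNA per cell cannot be told apart.

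**Figure D1:**
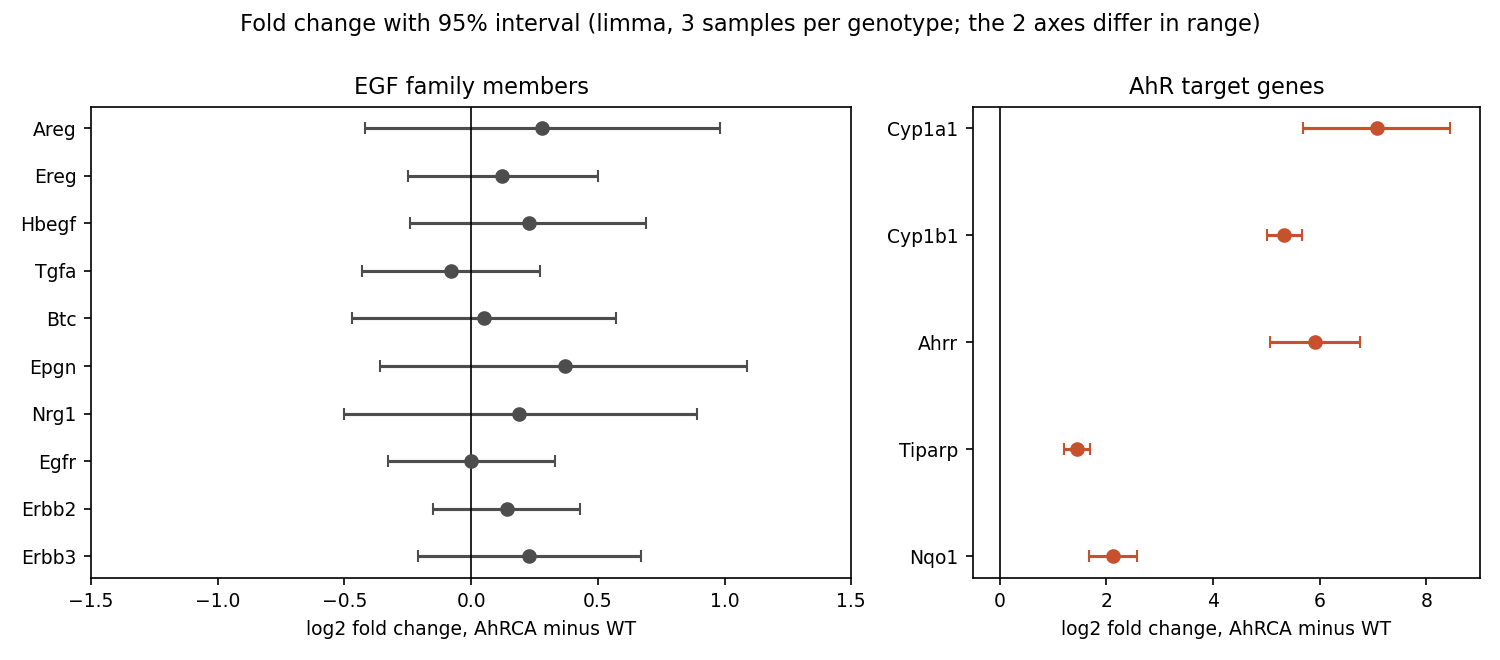
The left panel plots the log2 fold change (AhRCA minus WT) of the 10 EGF family genes and the right panel that of 5 AhR target genes, as points with 95% intervals from limma (3 samples per genotype). The intervals of the 10 family genes hold 0, whereas those of the AhR targets start at 1.2 or above; the axes of the panels differ in range.

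The stretch of 250 bases before the start of a gene was read for the core of the AhR response element, GCGTG, on either strand (reverse complement CACGC). Windows were found for 6 of the 10 genes. The core stood in those of Btc (2 matches) and Tgfa (1), and in none of the windows of Areg, Epgn, Egfr and Erbb2, beside 28.2% of 32851 windows of this length over all genes. The windows of Cyp1a1, Cyp1b1, Ahrr and Tiparp held it and that of Nqo1 did not. Areg, Epgn and Btc are shown as neighbours on chromosome 5, where Epgn, Ereg, Areg and Btc follow each other with 0 other protein-coding genes between them, and Tgfa is shown because its window holds the core. Capitals mark the AhR core and, in Areg, the cyclic AMP response element TGACGTCA, a motif in 1.55% of all windows that does not overlap a core match here. Sequences are from RefSeq, build GRCm38.p6, and run 5′ to 3′ on the strand of the gene, ending at the base before its start.
Areg, chr5:91139349-91139598, + strand: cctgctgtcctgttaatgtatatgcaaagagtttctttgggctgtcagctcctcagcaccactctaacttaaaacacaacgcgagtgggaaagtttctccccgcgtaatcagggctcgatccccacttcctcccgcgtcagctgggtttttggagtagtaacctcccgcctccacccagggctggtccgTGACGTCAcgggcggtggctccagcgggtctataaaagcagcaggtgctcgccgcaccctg
Epgn, chr5:91027267-91027516, + strand: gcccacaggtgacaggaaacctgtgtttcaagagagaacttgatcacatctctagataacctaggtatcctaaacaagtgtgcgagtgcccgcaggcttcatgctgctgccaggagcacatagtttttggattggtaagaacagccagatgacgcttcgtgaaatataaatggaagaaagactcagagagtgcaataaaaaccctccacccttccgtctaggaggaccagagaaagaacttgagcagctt
Btc, chr5:91402995-91403244, - strand: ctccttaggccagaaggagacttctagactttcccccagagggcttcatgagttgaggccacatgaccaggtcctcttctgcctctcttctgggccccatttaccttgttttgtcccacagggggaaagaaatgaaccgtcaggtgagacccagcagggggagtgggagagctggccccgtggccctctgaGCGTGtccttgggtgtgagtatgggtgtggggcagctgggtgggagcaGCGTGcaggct
Tgfa, chr6:86194972-86195221, + strand: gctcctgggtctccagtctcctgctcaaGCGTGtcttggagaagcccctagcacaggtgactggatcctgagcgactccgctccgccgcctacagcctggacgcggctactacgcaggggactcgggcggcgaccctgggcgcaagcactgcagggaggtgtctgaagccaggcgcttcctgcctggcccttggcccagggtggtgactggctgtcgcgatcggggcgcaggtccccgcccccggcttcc
The core begins 59 and 11 bases before the start of Btc and 222 before that of Tgfa, and the cyclic AMP element begins 61 bases before that of Areg. A match describes the letters only, and binding was not measured.

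Values below are log2 intensities minus the 75th percentile of the same array, so that 0 is the intensity at that percentile. They compare samples for 1 probe, and levels of different genes cannot be set against each other. Between 56.2% and 61.3% of spots on an array were well above background, and the number of arrays limited the precision. The arrays of pairs 1 and 2 lay on slide 1 and those of pair 3 on slide 2. Xist, which is transcribed from the inactive X chromosome, was between 4.43 and 4.66 on slide 1 and at -4.20 and -7.14 on slide 2. Slide, litter of pair 3 and sex therefore coincided, and both genotypes were on each slide. Markers of basal and spinous keratinocytes were well above background on all 6 arrays in 10 of 10 cases, whereas 0 of 5 endothelial markers were bright enough to be tested. Other lists lay between these. Of 8 fibroblast markers 6 were tested, and 5 were well above background on all 6 arrays. For Schwann cells 4 of 5 markers were tested, and for skeletal muscle 2 of 6.

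Areg encodes amphiregulin, a growth factor that keratinocytes make for themselves. In WT epidermis it stood at 0.44, 0.11 and -0.50 in pairs 1, 2 and 3, and in AhRCA epidermis at -0.07, 0.26 and 0.70. The highest and the lowest of the 6 values were both in pair 3, and the groups overlapped. The fold change was 0.28 ± 0.29 on the log2 scale (SE, n = 3 per group, limma adjusted p = 0.942), with a 95% interval from -0.42 to 0.98. As a fold this was 1.22, and the interval reached from 0.749 to 1.97. Without WT replicate 3 the fold change was 0.02. The AhRCA mouse was lower in pair 1 (a difference of -0.51) and higher by 0.16 in pair 2, which gave a mean difference of -0.18 on slide 1, and the only pair on slide 2 differed by 1.21. These effects differed by 1.39 ± 0.31 (SE), with an unadjusted p of 0.0108 and an adjusted p of 0.492 (limma, genotype by slide). Slide 2 held 1 array per genotype, so the spread in this test came from slide 1 alone, with 2 residual degrees of freedom beside the variance shared across genes, and the arrays of slide 2 were assumed to vary alike. Of the 10 genes 0 passed this test, beside 0.0078% of all genes, and 2 had an unadjusted p under 0.05, beside 9.98% of all genes.

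Ereg encodes epiregulin, another ligand of Egfr. Its WT values were -0.13, -0.16 and -0.45 in pairs 1 to 3 and its AhRCA values -0.13, 0.09 and -0.34. The AhRCA mouse was level with its littermate in pair 1 and higher by 0.26 and 0.11 in the other pairs. The fold change was 0.12 ± 0.16 (limma adjusted p = 0.978), with an interval from -0.25 to 0.50. A change of more than 1.41-fold upward or 1.19-fold downward lay outside this interval. With littermates as blocks the SE was 0.09 and the adjusted p 0.603 (limma).

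Epgn, epigen, had the largest fold change of the family when all 6 arrays were used. It stood at 2.76, 2.04 and 1.64 in WT pairs 1 to 3 and at 2.84, 2.46 and 2.25 in AhRCA. Each AhRCA mouse was above its own littermate, by 0.08, 0.42 and 0.61, but the groups overlapped because pair 1 was the brightest in both genotypes. In the fit its fold change was 0.37 ± 0.30 (limma adjusted p = 0.868), with an interval from -0.36 to 1.09, or from 0.782-fold to 2.13-fold. It ran from 0.11 (without WT replicate 3) to 0.67 (without WT replicate 1) when 1 array was left out. At 0.11 it lay below that of Btc (0.24 in the same fit), and within slide 1 it was 0.25, below that of Erbb3 (0.36). When littermates were treated as blocks its unadjusted p was 0.0399, the lowest of the family in that fit, and its adjusted value was 0.248. Erbb2 was also higher in all 3 pairs. By sign alone Ereg was too, although its difference in pair 1 was only 0.000472. Counted by sign, 3 of 10 genes were higher in all pairs and 0 were lower in all, beside 19.7% and 20.1% of all genes.

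Hbegf encodes the heparin-binding ligand, known for its part in keratinocyte migration over wounds. The WT values were 3.03, 2.77 and 2.58 and the AhRCA values 2.79, 2.90 and 3.37 in pairs 1 to 3. As for Areg, the AhRCA mouse was lower in pair 1 and the widest gap was in pair 3, where it was higher by 0.79. The fold change was 0.23 ± 0.19 (limma adjusted p = 0.886), with an interval from -0.24 to 0.69. It was -0.05 within slide 1. The genotype by slide difference of 0.84 ± 0.21 had an unadjusted p of 0.016 and an adjusted p of 0.492 (limma), and as for Areg it set the single pair of slide 2 against the spread of slide 1. Across the 6 arrays the values of Areg and Hbegf had a Pearson correlation of 0.94, and of 0.93 for deviations from the group means. This describes 6 arrays that share slides and litters.

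**Figure D2:**
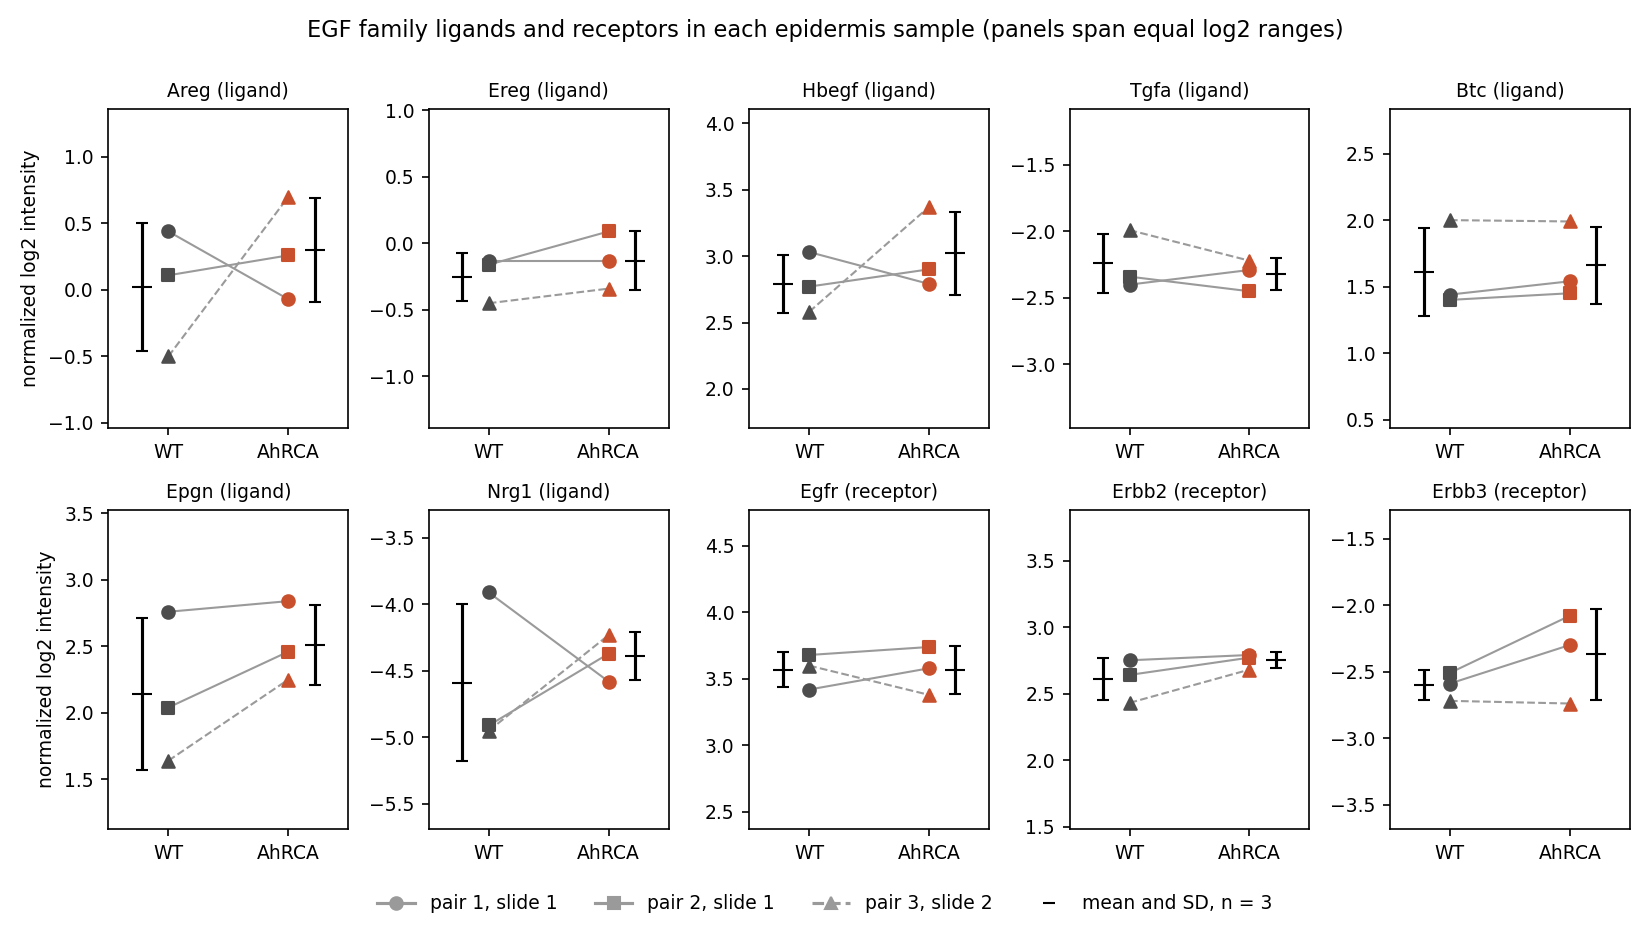
Normalized log2 intensity of the 10 genes in WT and AhRCA epidermis, 1 panel per gene, with grey lines joining littermates and bars for the mean and SD (n = 3). The groups overlap in every panel; the lines of Areg and Hbegf cross, with pair 3 (dashed) rising most, while both triangles of Btc lie above its other points.

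Tgfa encodes transforming growth factor alpha, whose loss gives mice a wavy coat. It stood at -2.40, -2.34 and -1.99 in WT and at -2.29, -2.45 and -2.22 in AhRCA epidermis. The fold change of -0.08 ± 0.15 (limma adjusted p = 0.999, interval from -0.43 to 0.27) was the only negative one among the ligands. The probe that stands for Tgfa was printed in 10 spots per array, and the other Tgfa probe also had -0.08.

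Btc encodes betacellulin. Its WT values were 1.44, 1.4 and 2.0 and its AhRCA values 1.54, 1.45 and 1.99 in pairs 1 to 3. The genotypes were nearly level within each pair, with differences of 0.10, 0.05 and 0.00, and the fold change was 0.05 ± 0.22 (limma adjusted p = 0.999, interval from -0.47 to 0.57). Its variation followed the slides instead. The 2 arrays of slide 2 stood 0.54 ± 0.08 (SE) above the 4 arrays of slide 1, and Btc was the only 1 of the 10 genes to pass that test (adjusted p = 0.0214, limma with genotype and slide), beside 14.5% of all genes (6.46% higher on slide 2). Slide, litter and sex cannot be told apart in this difference, which was looked at after the values were seen. With the slide in the model the difference between genotypes stayed at 0.05, with an SE of 0.07. With littermates as blocks it was also 0.05, with an SE of 0.08. All these values come from the brighter of 2 Btc probes. The other probe was well above background on 1 of 3 WT and 0 of 3 AhRCA arrays and was not fitted. Its means were -6.29 in WT and -6.31 in AhRCA. At so dim a signal it cannot check the genotype or slide result, which rest on 1 probe.

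Nrg1, neuregulin 1, is a ligand of Erbb3 and the only 1 of the 10 genes that was not well above background on all 6 arrays. Of its 3 probes, 1 was well above background on at least 3 arrays, and that probe was so on 2 of 3 WT and 3 of 3 AhRCA arrays. It stood at -3.91, -4.91 and -4.95 in WT and at -4.58, -4.37 and -4.23 in AhRCA epidermis. WT 1 held the highest value and the other WT arrays the lowest ones. Nrg1 had a fold change of 0.19 ± 0.29 (limma adjusted p = 0.996), with an interval from -0.50 to 0.89. Without WT replicate 1 it was 0.54 and its adjusted p was 0.227.

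**Figure D3:**
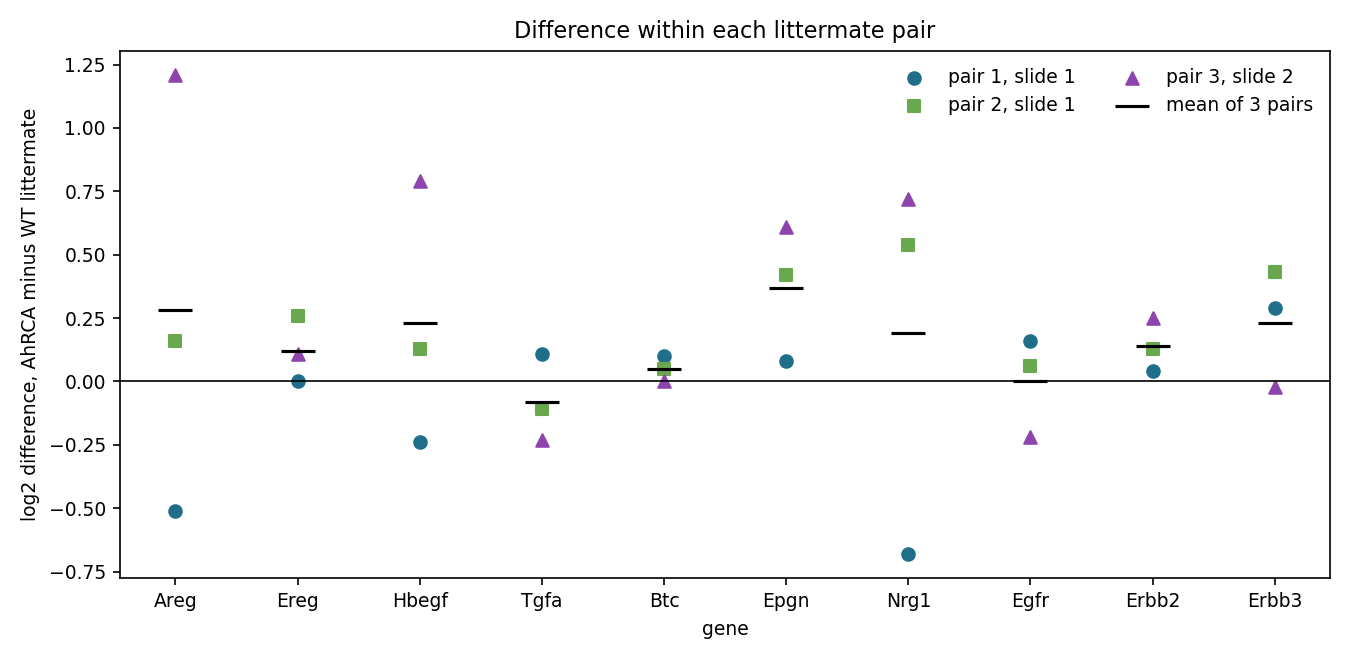
Log2 difference between the AhRCA mouse and its WT littermate for each of the 10 genes, with symbols for the 3 pairs and a bar for their mean. The pairs of Areg span -0.51 to 1.21 and those of Nrg1 -0.68 to 0.72, while those of Btc and Erbb2 lie between 0.00 and 0.25.

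Egfr, the receptor of most of these ligands, had nearly equal means in the genotypes. Its brightest probe stood at 3.42, 3.68 and 3.60 in WT pairs 1 to 3 and at 3.58, 3.74 and 3.38 in AhRCA. This gave a fold change of 0.00 ± 0.14 (limma adjusted p = 0.999), with an interval from -0.33 to 0.33, or from 0.798-fold to 1.25-fold. Egfr has 4 probes here. The accession NM_207655, the full-length receptor, has 2 of them, with fold changes of 0.00 ± 0.14 and 0.09 ± 0.14. The accession NM_007912, a shorter transcript for a secreted form, has the other two, with 0.02 ± 0.10 and 0.02 ± 0.14. All 4 fold changes were smaller than their SE, and where the probes bind within the transcripts was not known here.

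Erbb2, the partner receptor without a soluble ligand, had the smallest spread of the family. Its values were 2.75, 2.64 and 2.43 in WT and 2.79, 2.77 and 2.68 in AhRCA epidermis. The AhRCA mouse was higher in each pair, by 0.04, 0.13 and 0.25, but the lowest AhRCA value lay below the highest WT value. Erbb2 had a fold change of 0.14 ± 0.12 (limma adjusted p = 0.886), and the interval from -0.15 to 0.43 allowed a rise of no more than 1.35-fold. The second Erbb2 probe gave 0.13 ± 0.13.

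Erbb3, the neuregulin receptor, whose own kinase is weak, had the lowest p of the family. It stood at -2.59, -2.51 and -2.72 in WT and at -2.30, -2.08 and -2.74 in AhRCA. On slide 1 the AhRCA mice were higher by 0.29 and 0.43, and on slide 2 the littermates were level. Erbb3 had a fold change of 0.23 ± 0.18 (limma adjusted p = 0.853), with an interval from -0.21 to 0.67. Within slide 1 its unadjusted p was 0.0314 and its adjusted p 0.213. The 4 Erbb3 probes gave fold changes of 0.23, 0.29, 0.31 and 0.32, all positive, and the lowest adjusted p among them was 0.539 (limma, over 24005 probes). That p belongs to the probe with 0.32, which was well above background on 2 of 3 WT and 3 of 3 AhRCA arrays. The 4 probes read the same samples, so their common sign is not independent.

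**Figure D4:**
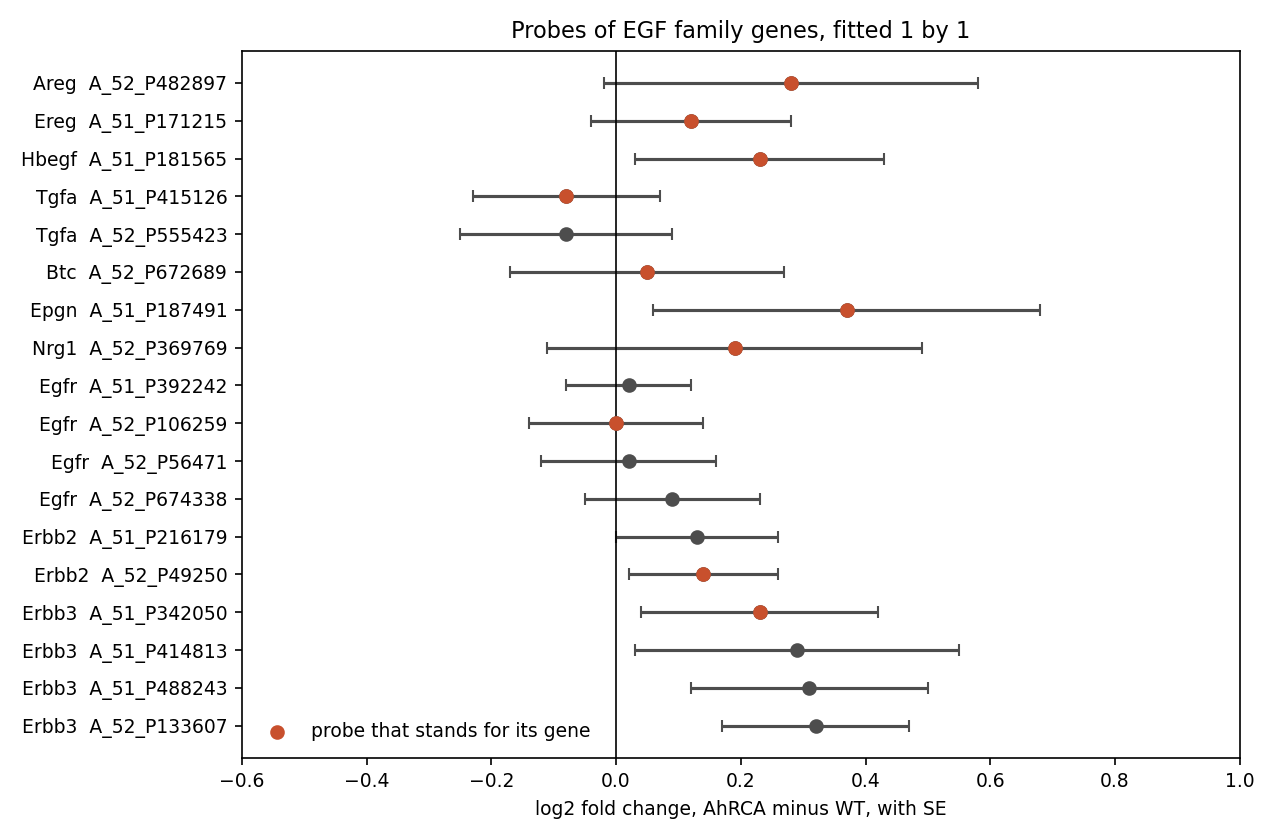
Log2 fold change with SE of the 18 EGF family probes that were well above background on at least 3 of 6 arrays, fitted 1 by 1, with the probe that stands for its gene in orange. Probes of 1 gene lie close together: those of Erbb3 between 0.23 and 0.32, those of Egfr between 0.00 and 0.09 and both of Tgfa at -0.08.

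Of the 18 probes fitted, 0 passed the threshold, beside 1.10% of all probes. Spread between arrays of 1 genotype differed among the genes. The residual SD was 0.45 for Epgn and 0.44 for Areg and Nrg1, above that of at least 89.2% of all genes tested, and 0.12 for Erbb2, above that of 22.4%. The intervals were wide for the same genes. The genes whose values were most like those of Erbb3 over the 6 arrays were Chchd7, Ddx28, Tent2, Nisch and 1700073E17Rik, with Pearson correlations of at least 0.9887 among 12821 genes. For deviations from the group means they were Chsy1, Chchd7, Pcif1, Micos10 and Card19, with at least 0.9976. None of these genes passed the test between genotypes. They were picked as the highest of 12821 correlations over 6 arrays that share slides and litters. Values near 1 therefore describe these arrays and were not tested.

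The other genes of the pathway were taken as 5 lists with 70 entries, of which 60 were tested. Of these, 0 rose and 1 fell (limma, Benjamini-Hochberg), beside 0.53% and 1.65% of all genes. An unadjusted p under 0.05 was found for 6, beside 12.2% of all genes. The gene that fell was Adam8, a metalloproteinase of the ADAM family. It stood at 3.16, 2.77 and 2.95 in WT and at 1.91, 1.51 and 1.70 in AhRCA epidermis, so that every AhRCA array was below every WT array. The fold change was -1.25 ± 0.16 (adjusted p = 0.0154, interval from -1.63 to -0.88) and was as large within slide 1, at -1.26, where it did not pass (adjusted p = 0.0936). The call was also lost without WT replicate 2 (adjusted p = 0.0504), AhRCA replicate 2 (0.0696) or AhRCA replicate 3 (0.056). Some markers of Langerhans and myeloid cells, which also express Adam8, differed too. Of 7 tested (of 10), Adgre1 rose and Cd207 fell, being well above background on 3 of 3 WT and 0 of 3 AhRCA arrays. The list was split. Adgre1, Ptprc and Csf1r were the 3 of the 7 with AhRCA higher and groups that did not overlap. The other 4 had AhRCA lower without overlap, and the shares of all genes were 7.52% and 8.84%. The summed linear level of the 7, relative to the 75th percentile, was between 6.98 and 12.5 in WT and between 4.51 and 7.06 in AhRCA. H2-Ab1 and Cd74, which were lower in AhRCA, were the brightest in WT and weigh most in this sum. Some markers of other cell types fell as well. Of the markers of sebaceous gland, 6 of 8 tested fell, with a median of -1.61 and the lowest value at -3.57 for Elovl3, a fatty acid elongase, and their summed level was between 14.2 and 19.9 in WT and between 3.77 and 4.39 in AhRCA. Of those of Merkel cells, the touch-sensing cells of the epidermis, 3 of 4 tested fell, with a median of -1.92, and their summed level went from between 1.38 and 2.19 to between 0.408 and 0.618. Lgr5 was the 1 of 11 tested hair follicle markers that fell, at -0.83, and Krt15 the 1 of 10 markers of basal and spinous keratinocytes, at -0.72. Of the 11 follicle markers, 5 had AhRCA lower without overlap and 0 had AhRCA higher without overlap. Besides Lgr5 these 5 were Krt27 (-1.25), Krt71 (-1.24), Krt25 (-1.12) and Krt35 (-0.86), with limma adjusted p between 0.135 and 0.264. The summed level of the 11 was lower on every AhRCA array than on every WT array. Krt71, the brightest of the 11 in WT, weighs most in this sum. Fold changes of 3 of the 11 were positive, at 0.16 for Shh, 0.12 for Foxn1 and 0.06 for Lhx2. The part of these cell types in the value of Adam8, or in those of the EGF family, was not tested.

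Of 9 tested genes for ligand shedding, the other 8 did not pass. Fold changes were positive in 4 of the 9, beside 50.4% of all genes, and in 6 under median scaling, beside 58.5%. Adam17, the main protease that frees Egfr ligands, had -0.01 ± 0.10, with an interval from -0.24 to 0.22. Rhbdf1 and Rhbdf2, which bring Adam17 to the cell surface, had 0.14 ± 0.13 and -0.04 ± 0.12. Of the remaining ligands, Egf had -0.06 ± 0.15 and Nrg4 had -0.04 ± 0.15.

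Of 17 tested negative regulators 0 passed and 2 had an unadjusted p under 0.05, beside 12.2% of all genes. Their fold changes were positive in 14, beside 50.4% of all genes, with a median of 0.13. The largest were those of Cbl, a ubiquitin ligase that marks Egfr for breakdown, at 0.65 ± 0.18 (limma adjusted p = 0.174), and Socs5, at 0.60 ± 0.14 (adjusted p = 0.115). Cbl stood at -3.11, -3.34 and -2.83 in WT and at -2.55, -2.62 and -2.16 in AhRCA. The lowest AhRCA value was above the highest WT value, and 3 of the 17 genes had groups that did not overlap with AhRCA higher, beside 7.52% of all genes. Cbl passed in the fits that took littermates (adjusted p = 0.0319) or slides (0.027) as blocks.

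Of 10 tested transcripts that receptor signalling induces, 0 passed and 2 had an unadjusted p under 0.05, beside 12.2% of all genes. Fold changes were positive in 10, beside 50.4% of all genes, with a median of 0.24 and a range from 0.13 to 0.59. All 10 were also positive under quantile and median scaling and within slide 1, beside 49.8%, 58.5% and 54.6% of all genes in that order. These settings reuse the same arrays, so they are not independent of the main fit. The largest fold changes were those of Etv4, an ETS factor, at 0.59 ± 0.24 (limma adjusted p = 0.403), and Ier3, an immediate early gene, at 0.45 ± 0.22 (adjusted p = 0.546). Of 22 adaptors and kinases 0 passed and 1 had an unadjusted p under 0.05, with a median of -0.02 (0.01 under median scaling). Fold changes were positive in 7 of the 22, beside 50.4% of all genes, and in 14 under median scaling, beside 58.5%. The largest were those of Pik3r1, a regulatory subunit of PI3 kinase, at 0.33 ± 0.10 (adjusted p = 0.215), and Src, at 0.23 ± 0.26 (adjusted p = 0.955).

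**Figure D5:**
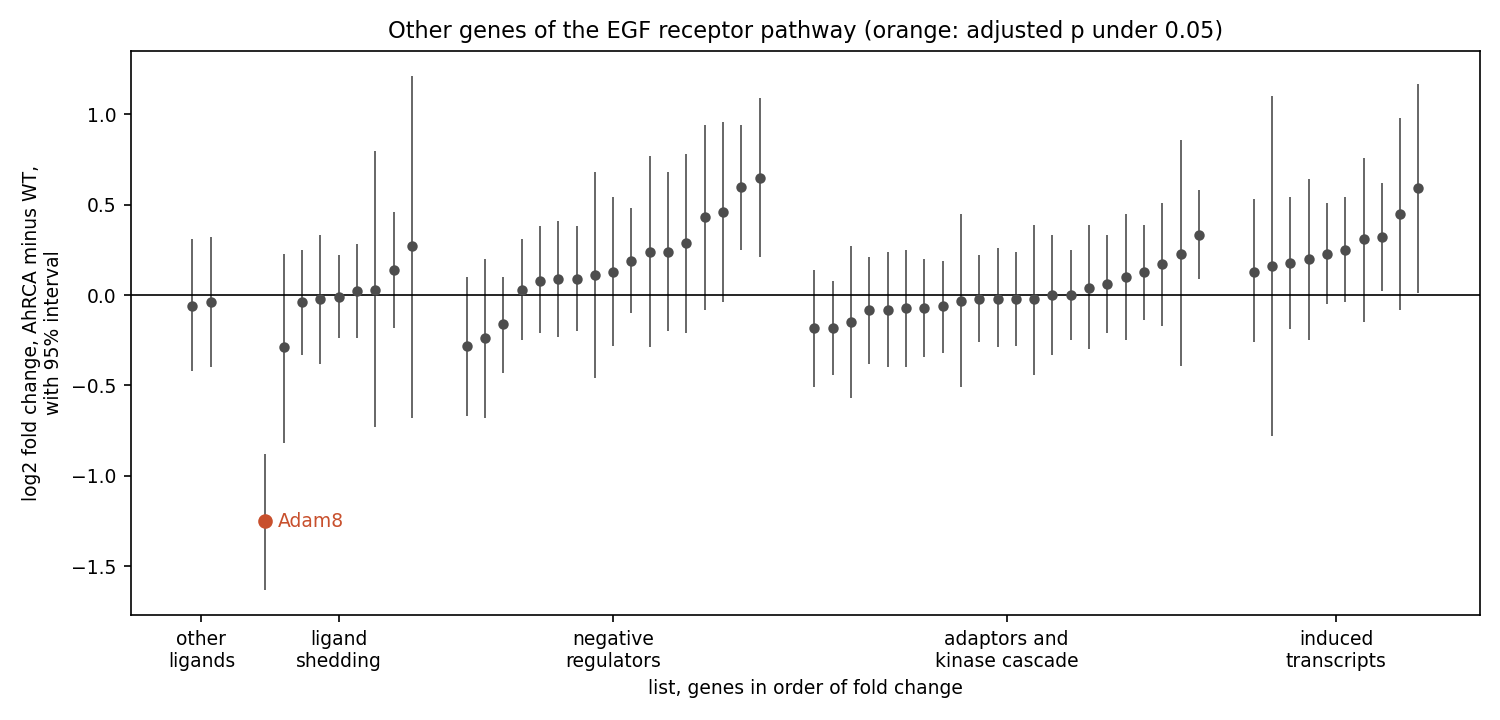
Log2 fold change with 95% interval of the 60 tested pathway genes, by list and in order of fold change, with genes of adjusted p under 0.05 in orange. Adam8, at -1.25, is the only orange point; the 10 induced transcripts lie above 0 and the 22 adaptors and kinases centre on -0.02.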

How the data were processed

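Per the file headers, the authors deposited spot intensities for 6 Cy3-labelled arrays, read with Feature Extraction 10.7.3.1, background-subtracted within each array and not scaled between arrays. The authors also deposited a table of log2 values. Over the 21932 of its 41267 probes that were well above background on all 6 arrays, its differences between arrays followed those of the log2 intensities with a slope of 0.9997, so its scale and direction are known. Each of its probes has a median within 0.001 of 0 across the arrays. Column medians were -0.0705, -0.0495 and 0.0827 in the WT replicates (in numerical order) and 0.0283, 0.0638 and -0.0710 in the AhRCA replicates. It served as an alternative.

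Values were log2 processed intensity minus the 75th percentile of each array. Controls and 56 to 94 outlier spots per array were left out, spots of a probe were averaged, and 0 spots were saturated. Symbols came from RefSeq accessions through a GRCm38.p6 table. Of 41174 probes 26690 matched 1 symbol, 0 several and 14484 none. Probes were kept if 3 or more of 6 arrays flagged them well above background, and the brightest stood for its gene, which gave 12824 genes. No value of the 10 genes was missing. The genotypes were compared with limma 3.58.1 in R 4.3.3 (lmFit and eBayes, two-sided, 95% intervals from the moderated statistic, threshold 0.05 after Benjamini-Hochberg over all genes tested), after a check on simulated data. The members, lists and tests were chosen with earlier results of these data known. The genes named were the 10 members, up to 4 called genes of each pathway list or else the 2 with the largest change, and the 5 genes most like the member with the largest statistic.

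The replicate numbers pair the samples, since each sampling took littermates and deviations of same-numbered arrays from the group means correlated at 0.337, 0.372 and 0.55, against -0.416 to 0.194 for other pairs. A fit with littermates as blocks called 497 genes, against 279 without. The planned normexp correction on mean signals was not run because the columns used here hold medians, and medians were used. Other alternatives were the scaling, the filter on dim probes, the mean of probes, the slide as a block, slide 1 only and leaving out each array.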

Additional observations from a re-analysis of the deposited data

How the results depend on the processing

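Of the 10 family genes 0 passed under each of the 16 alternatives, where the lowest adjusted p was 0.213 (Erbb3 on slide 1 only), and 0 had effects that passed a test of the difference between slides under the scaling, background and filter alternatives run. With the filter on all 6 arrays 9 of the 10 were tested. Of 159 values 146 kept their sign. Within slide 1 the fold changes of Areg (-0.18), Hbegf (-0.05), Nrg1 (-0.07) and Egfr (0.11) had the other sign, and that of Egfr also with median scaling (0.03) and with the mean of its probes (0.03). The main fold change of Egfr was 0.00 ± 0.14, so its changes of sign carry no weight. Leaving out 1 array gave 0.02 to 0.49 for Areg, 0.01 to 0.23 for Ereg, 0.05 to 0.34 for Hbegf, -0.15 to 0.05 for Tgfa, -0.12 to 0.24 for Btc, 0.11 to 0.67 for Epgn, 0.01 to 0.54 for Nrg1, -0.09 to 0.09 for Egfr, 0.05 to 0.21 for Erbb2 and 0.09 to 0.42 for Erbb3. The cause was not tested.

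The number of genes called was 279. It was 132 without a filter on dim probes, 497 with the replicate block, 539 with the slide as a block, 130 on slide 1 only and between 62 and 195 with 1 array left out (62 without WT replicate 2). The pathway lists held 1 called gene, 2 with the replicate block or the slide as a block, 0 on slide 1 only and between 0 and 1 with 1 array left out. Among the family and pathway genes the replicate block changed the call of Cbl only. The median of all genes moved by at most 0.03. The number of arrays limits what can be seen, and for Nrg1 the signal over background does too.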
